A study of Mus musculus with 16 samples.

Results

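The genes described here are 10 members of the growth hormone and STAT5 pathway of the liver: Ghr, Prlr, Jak2, Stat5b, Socs2, Cish, Bcl6, Igf1, Igfals and Pim1. They were chosen by symbol as the receptors, the kinase, the transcription factor, the feedback inhibitors and the targets of the pathway. Earlier results of these data were known when they were chosen. Each symbol was found in 1 of the 41585 rows of the count table. All 10 passed the filter on low counts, which left 13470 genes to be tested. Growth hormone binds its receptor on hepatocytes, the receptor-bound kinase JAK2 phosphorylates STAT5B, and STAT5B enters the nucleus and binds paired half-sites in the promoters and enhancers of its targets. Male mice secrete growth hormone in sharp pulses and females more continuously, and the sex-biased expression of many liver genes depends on that pattern. SOCS2 and CIS, themselves products of STAT5 targets, then damp the signal, and IGF1 carries much of the hormone's effect to other tissues.

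RNA from whole liver of C57BL/6 mice was sequenced in 16 libraries, 4 for each combination of sex and genotype, after 16 weeks on a diet with 60% fat. The genotypes were Cyp2b-null, named for the loss of the mouse Cyp2b genes, which encode drug- and steroid-metabolising cytochromes P450, and hCYP2B6-Tg, named for a transgene of the human enzyme of that family. The sources used here do not give the age of the mice, the promoter of the transgene, the genes deleted, whether the transgenic mice also carry the deletion, or the time of day of collection. The series was made to study the role of the human enzyme in obesity caused by diet. The labels do not state that each library is a separate animal, so p-values cover only the variation among these libraries, part of which may be technical.

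Libraries held 5584587 to 9672708 counts, of which ribosomal RNA rows took 2.76% to 9.31%. The mouse rows Cyp2b10, Cyp2b19 and Cyp2b23 summed to 0 or 1 count in each Cyp2b-null library, to 9 to 26 counts in hCYP2B6-Tg females and to 6 to 50 counts in hCYP2B6-Tg males. Whether reads of the human transgene were counted in these rows was not tested. All 6 hepatocyte markers were found in every group and summed to 97892 to 129078 CPM (counts scaled to a common library size with edgeR's TMM factors). Of 8 lymphocyte markers 0 passed the filter, and the list summed to 4.19 to 8.78 CPM per library. Kupffer cell and macrophage markers summed to 396 to 687 and 412 to 558 CPM in Cyp2b-null and hCYP2B6-Tg females and to 284 to 436 and 321 to 396 CPM in the males. Fat cell markers summed to 3.12 to 8.75 CPM in females of the Cyp2b-null group, 3.73 to 6.81 in the transgenic females, 9.47 to 24.9 in Cyp2b-null males and 8.40 to 43.8 in hCYP2B6-Tg males. The highest of these sums was that of hCYP2B6-Tg male library 4. Of the 6 fat cell markers, however, 4 had no count in any hCYP2B6-Tg male library, and 2 passed the filter. Cyp2b-null male library 4 had the highest sums of bile duct markers, 98.1 CPM in a group with a lowest sum of 20.6, and of pancreatic acinar markers, 54.5 CPM against a lowest sum of 15.9. Of the 6 acinar markers, however, 4 had no count in any Cyp2b-null male library, and 1 passed the filter. Separately, hCYP2B6-Tg male library 4 and Cyp2b-null female libraries 1 and 3 had stood apart in earlier work on these data. The criterion for these 3 libraries is not given here. The calls and the spread between libraries are also given without these 3, with Cyp2b-null male library 4 kept. In bulk tissue, fewer cells of a type and less RNA per cell cannot be told apart.

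The promoter sequences are shown first because STAT5 dimers bind the palindrome TTCNNNGAA, which reads the same on both strands. RefSeq promoters of GRCm38.p6, from 250 bases before to 50 after a start site, were found for 9 of the 10 genes, in 17 entries. Socs2 had no entry and was not searched. The letters TTCNNNGAA, in capitals below with flanking bases in lower case, were present in 6 of the 17 entries, of the 4 genes Cish, Prlr, Bcl6 and Igfals. Of all 32851 promoter entries of the table, 8.30% held at least 1 match. Sequences are given 5′ to 3′ on the strand of the gene, with the first base of each match counted from the start site along that strand.
Cish, plus strand, chr9:107296654-107296683, matches at 0 and 11 from the start site: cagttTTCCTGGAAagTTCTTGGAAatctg
Prlr, plus strand, chr15:10223786-10223814, match at -110 from a start site inside the gene: gcaaaatgagTTCTAGGAAtaagggatat
Bcl6, minus strand, chr16:23988952-23988980, match at -118 from the outer start site: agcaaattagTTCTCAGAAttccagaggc
Bcl6, minus strand, chr16:23981433-23981461, match at -168 from an inner start site: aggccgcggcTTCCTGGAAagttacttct
Bcl6, minus strand, chr16:23981387-23981415, match at -122 from the inner start site: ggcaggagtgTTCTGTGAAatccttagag
Bcl6, minus strand, chr16:23981353-23981381, match at -88 from the inner start site: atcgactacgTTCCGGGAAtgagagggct
Igfals, plus strand, chr17:24877598-24877626, match at -236 from the outer start site: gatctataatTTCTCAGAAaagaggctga
Igfals, plus strand, chr17:24878163-24878191, match at -58 from an inner start site: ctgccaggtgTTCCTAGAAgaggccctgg

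The Cish entry held 2 matches with 2 bases between them, overlapping an annotated exon at the start of the gene, and the inner Bcl6 entry held 3. At least 2 matches were present in 0.457% of all entries, and at least 3 in 0.0335%. The Prlr match, the 3 inner Bcl6 matches and the inner Igfals match lay inside their genes and in no annotated exon, while the outer Bcl6 and Igfals matches lay outside the genes. These matches are descriptions of letters in a window, and the absence of a match says only that these letters are not in that window.

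Levels are compared between genes as CPM per kilobase of annotated exon (GENCODE M21), since long transcripts collect more reads. Ghr and Igf1 were at the top in all 4 groups, with mean levels of 69.7 to 83.2 and 59.5 to 66.4 CPM per kilobase. Their library values overlapped in both female groups and did not overlap in either male group. Igfals came next at 25.8 to 45.6 CPM per kilobase and overlapped neither neighbour in any group. Prlr followed, above Stat5b, in 3 groups, at 26.2 and 13.2 CPM per kilobase in Cyp2b-null females. In hCYP2B6-Tg males Stat5b stood above Prlr, with means of 10.8 and 8.42 CPM per kilobase, and the libraries of these genes overlapped in both male groups. Jak2, Pim1, Socs2, Cish and Bcl6 were the 5 lowest genes in every group, with means from 1.47 to 7.39 CPM per kilobase and an order that differed between groups.

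**Figure D1:**
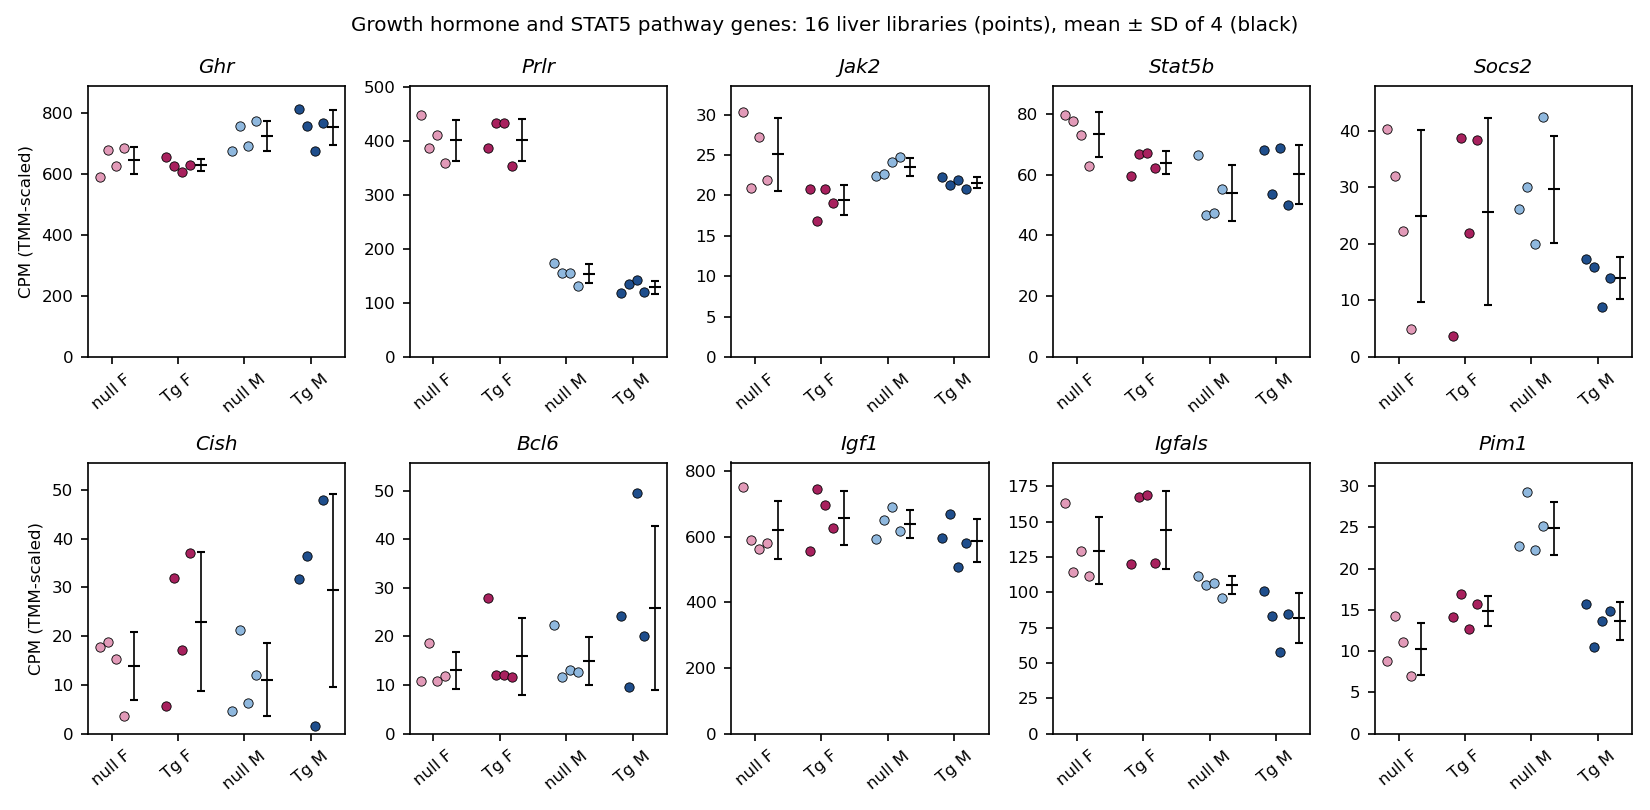
Level of each of the 10 genes in CPM (vertical axis, linear, from 0) in the 4 groups of liver libraries; each point is 1 library and the black bar is the mean ± SD of 4. Prlr stood at 353 to 448 CPM in female and at 118 to 175 CPM in male libraries, and Pim1 was highest in the Cyp2b-null males, at 22.2 to 29.3 CPM.

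The genotype comparison asked whether the transgenic livers differed from the Cyp2b-null livers of the same sex. Values are listed below in the order of the library numbers, which were 1, 3, 4 and 5 for Cyp2b-null females, 1, 2, 4 and 5 for hCYP2B6-Tg females, 1, 2, 3 and 4 for Cyp2b-null males and 2, 3, 4 and 5 for hCYP2B6-Tg males. Changes are log2 fold changes ± standard error (SE) from edgeR's quasi-likelihood test, with p adjusted over all 13470 genes and a threshold of 0.05. In females 0 of the 10 genes passed, as did 0% of all tested genes, with limma voom and DESeq2 also calling 0 of the 10. At an unadjusted p under 0.05 there were 2 of the 10 (Jak2 and Pim1), against 7.59% of all genes. In males 1 gene, Pim1, passed and was lower in hCYP2B6-Tg livers, against 0.111% of all genes in either direction, 0.0594% lower and 0.052% higher. In males DESeq2 also called 1 of the 10 and limma voom called 0. At an unadjusted p under 0.05 there were 3 of the 10 in males (Prlr, Igfals and Pim1), against 7.17% of all genes. The difference of the genotype effect between the sexes also passed for Pim1 only, against 0.0445% of all genes, 0.0223% in each direction. For that difference 3 of the 10 had an unadjusted p under 0.05 (Stat5b, Igfals and Pim1), against 7.7% of all genes. The median log2 fold change of the 10 genes was 0.091 in females and -0.12 in males, against 0.0016 and -0.0043 over all genes.

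Pim1 (chr17:29490785-29496111) encodes a serine/threonine kinase that promotes cell survival and is a STAT5 target in blood cells. It stood at 8.78, 14.2, 11.1 and 6.98 CPM in the Cyp2b-null females and at 14.1, 16.9, 12.7 and 15.7 CPM in the hCYP2B6-Tg females. In Cyp2b-null males it stood at 22.8, 29.3, 22.2 and 25.2 CPM, and in hCYP2B6-Tg males at 15.7, 10.5, 13.6 and 14.8 CPM. All 4 Cyp2b-null male libraries thus lay above all 12 others, and the female groups overlapped through Cyp2b-null library 3. With means of 24.9 ± 3.24 and 13.7 ± 2.30 CPM (SD, n = 4 each), Pim1 fell by 0.86 ± 0.17 on the log2 scale in transgenic males (edgeR adjusted p = 0.0405), a level 1.82-fold lower. In females the estimate had the other sign, 0.56 ± 0.18 (edgeR adjusted p = 0.508, unadjusted 0.00490), with means of 10.3 ± 3.11 and 14.9 ± 1.83 CPM. The effect in males minus that in females was -1.42 ± 0.24 (edgeR adjusted p = 0.0420). Without the 3 libraries that stood apart these values were -0.86 in males and -1.59 for the difference (edgeR adjusted p = 0.0451 and 0.0229). The male call was lost with limma voom (adjusted p = 0.0576) and without robust estimation in edgeR (adjusted p = 0.0630), and that of the difference with library totals as the only scaling (edgeR adjusted p = 0.0506). The male call rests on every male library: it was lost when any 1 of the 8 was left out, and without hCYP2B6-Tg female library 1, with adjusted p up to 0.183 and estimates of -0.92 to -0.76. The call of the difference was lost in 11 of 16 such omissions (adjusted p up to 0.138, estimates -1.60 to -1.25), which were those of Cyp2b-null female libraries 1 and 4, hCYP2B6-Tg female libraries 2, 4 and 5, Cyp2b-null male libraries 2, 3 and 4 and hCYP2B6-Tg male libraries 3, 4 and 5.

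Neither receptor passed the test for genotype in either sex. Ghr (chr15:3317755-3583352), the growth hormone receptor, stood at 592, 678, 628 and 686 CPM in Cyp2b-null females and at 657, 628, 607 and 631 CPM in hCYP2B6-Tg females. In males it stood at 675, 760, 692 and 776 CPM without and 813, 759, 675 and 767 CPM with the transgene. The groups overlapped in both sexes, and the 95% intervals of the log2 change were -0.20 to 0.13 in females and -0.11 to 0.22 in males. Prlr (chr15:10177238-10349190) encodes the prolactin receptor, which signals through the same kinase and STAT5 proteins. It stood at 448, 387, 412 and 359 CPM in Cyp2b-null females and at 388, 433, 434 and 353 CPM in hCYP2B6-Tg females. In males its values were 175, 155, 155 and 132 CPM in the Cyp2b-null and 118, 135, 143 and 120 CPM in the transgenic group. The genotypes overlapped in each sex, and the log2 change in males was -0.25 ± 0.10 (edgeR adjusted p = 0.536, unadjusted 0.0159).

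Jak2 (chr19:29251803-29313095), the kinase bound to both receptors, stood at 30.4, 20.9, 27.2 and 21.9 CPM in Cyp2b-null females and 20.8, 16.9, 20.7 and 19.1 CPM in hCYP2B6-Tg females. In males the values were 22.4, 22.7, 24.1 and 24.7 CPM against 22.3, 21.2, 21.9 and 20.8 CPM. The groups did not overlap in either sex, and in both the transgenic group lay lower, by a small margin. The log2 change was -0.37 ± 0.12 in females (edgeR adjusted p = 0.521, unadjusted 0.00506) and -0.12 ± 0.12 in males (edgeR adjusted p = 0.892). Jak2 was the 1 member whose female groups did not overlap, against 3.5% of all genes, and 1 of 3 in males, with Socs2 and Pim1, against 4.77%.

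Stat5b (chr11:100780731-100859004) encodes the main STAT5 of hepatocytes; its reads can be shared with the close copy Stat5a, and how such reads were counted is not known. It stood at 79.7, 77.5, 73.1 and 62.9 CPM in Cyp2b-null and 59.7, 66.9, 67.2 and 62.2 CPM in hCYP2B6-Tg females. In males the values were 66.4, 46.6, 47.3 and 55.3 CPM against 68.0, 53.5, 68.7 and 50.1 CPM. Both pairs overlapped, and the estimates had opposite signs, -0.19 ± 0.12 in females and 0.16 ± 0.12 in males, with a difference of 0.35 ± 0.17 (edgeR adjusted p = 0.632, unadjusted 0.0454).

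**Figure D2:**
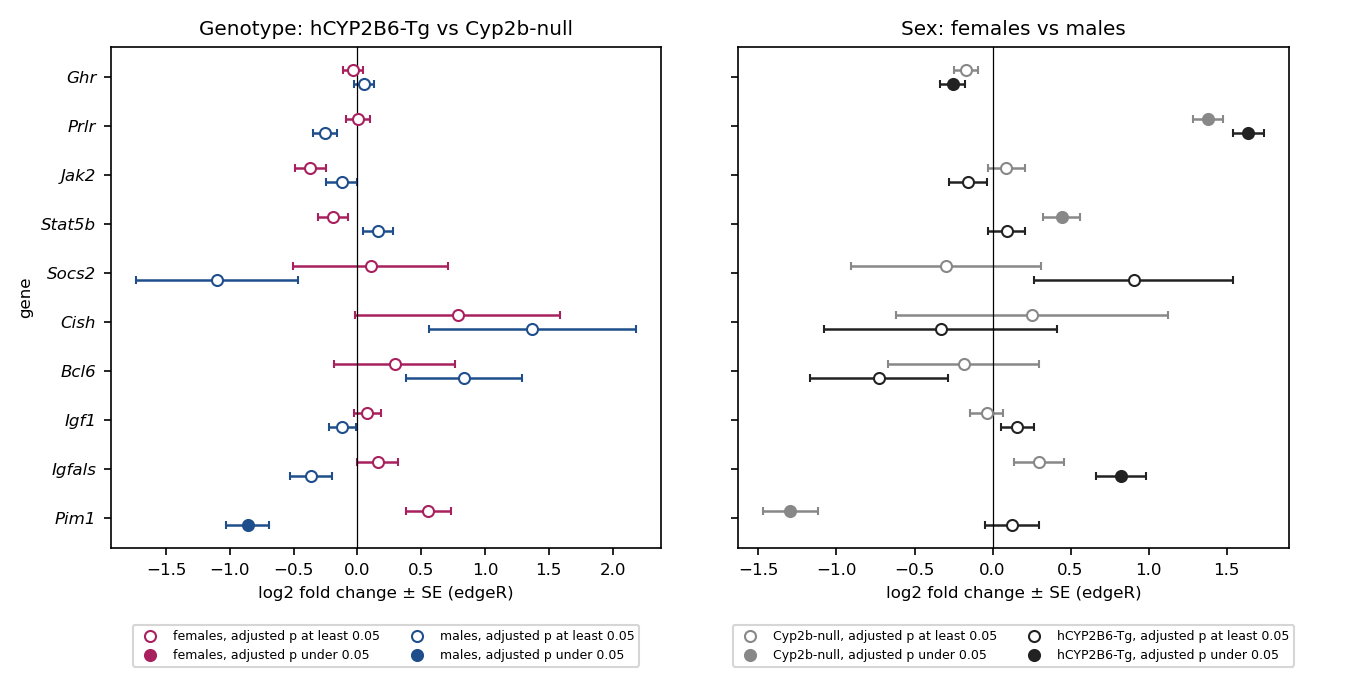
Log2 fold change ± SE from edgeR (horizontal axis) of each gene for genotype, as hCYP2B6-Tg against Cyp2b-null livers in each sex (left), and for sex, females against males in each genotype (right); filled points passed the adjusted p threshold of 0.05. Pim1 in males, at -0.86, was the filled point on the left, and Prlr, at 1.38 and 1.64, lay farthest to the right on the right side.

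Of the 10 genes, the feedback inhibitors Socs2 and Cish and the repressor gene Bcl6 varied most among libraries of the same group. Socs2 (chr10:95383903-95417321) encodes a suppressor of growth hormone receptor signalling. It stood at 40.4, 32.0, 22.2 and 5.001 CPM in Cyp2b-null females and at 3.77, 38.7, 22.0 and 38.4 CPM in hCYP2B6-Tg females, a range of 10.3-fold within the second group. In males it stood at 26.2, 29.99, 20.02 and 42.4 CPM without and 17.3, 15.8, 8.89 and 14.01 CPM with the transgene. The highest of these was Cyp2b-null male library 4, and the part of its bile duct and pancreatic marker signal in this level was not tested. Of the 6 acinar markers 4 had no count in that group. The male groups did not overlap, but the log2 change of -1.10 ± 0.64 did not pass (edgeR adjusted p = 0.772), nor did the difference from the female estimate, -1.20 ± 0.88 (edgeR adjusted p = 0.794).

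Cish (chr9:107296659-107302784), which encodes the inhibitor CIS, stood at 17.7, 18.7, 15.3 and 3.65 CPM in Cyp2b-null females and at 5.65, 31.9, 17.1 and 37.0 CPM in hCYP2B6-Tg females. In Cyp2b-null males the values were 4.69, 21.2, 6.22 and 12.1 CPM, and in hCYP2B6-Tg males 31.6, 36.5, 1.58 and 47.8 CPM. Library 4 of the transgenic males, with 14 counts of Cish, was the lowest of all 16, and the other 3 of its group were above every Cyp2b-null male. The log2 change was 1.37 ± 0.81 in males and 0.78 ± 0.80 in females (edgeR adjusted p = 0.784 and 0.867). Without the 3 libraries that stood apart the male value was 1.78 and still did not pass (edgeR adjusted p = 0.497).

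Bcl6 (chr16:23965050-23988866) encodes a repressor that binds many of the same sites as STAT5, and growth hormone lowers its transcript in liver. It stood at 10.9, 18.7, 10.8 and 11.8 CPM in Cyp2b-null females and at 27.8, 11.996, 12.1 and 11.6 CPM in hCYP2B6-Tg females. In Cyp2b-null males the values were 22.4, 11.6, 13.1 and 12.7 CPM, and in hCYP2B6-Tg males 24.1, 9.54, 49.6 and 20.2 CPM. In each of the first 3 groups 1 library stood above 3 close ones, and hCYP2B6-Tg male library 4, with 441 counts, was the highest of all. The male estimate of 0.84 ± 0.45 did not pass (edgeR adjusted p = 0.739) and was 0.30 without the 3 libraries that stood apart. In hCYP2B6-Tg male library 4 the lowest Cish, the highest Bcl6 and the highest sum of fat cell markers came together. Of the 6 fat cell markers 4 had no count in this group, and the part of that marker signal in these levels was not tested.

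Pooled over the 4 groups, the SD of log2 CPM between libraries of one group was 1.45 for Cish, which ranked 4 of the 13470 tested genes, 1.06 for Socs2, which ranked 38, and 0.63 for Bcl6, which ranked 675. The median over all genes was 0.24. Against the 500 genes nearest in mean level, Cish and Socs2 lay at percentile 100 and Bcl6 at 99.4. Each rank depended on single libraries: leaving out 1 library at a time, Cish ranked between 2 and 52 (52 without hCYP2B6-Tg male library 4), Socs2 between 29 and 218 (218 without hCYP2B6-Tg female library 1) and Bcl6 between 541 and 1429 (1429 without hCYP2B6-Tg male library 3). Without the 3 libraries that stood apart the SDs were 1.01 for Cish (rank 49), 1.05 for Socs2 (rank 38) and 0.54 for Bcl6 (rank 1160), and those of Jak2 and Igfals went from 0.15 to 0.12 and from 0.25 to 0.19. The remaining 7 genes had SDs of 0.093 to 0.28 and percentiles of 22.4 to 89.2 among their nearest genes, with Ghr, at 0.093, the least variable. Correlations of the deviations of the 10 genes with total counts, ribosomal RNA share and scaling factor, 30 in all, had r from -0.50 to 0.47 with a lowest permutation p, adjusted over the 30, of 0.766.

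**Figure D3:**
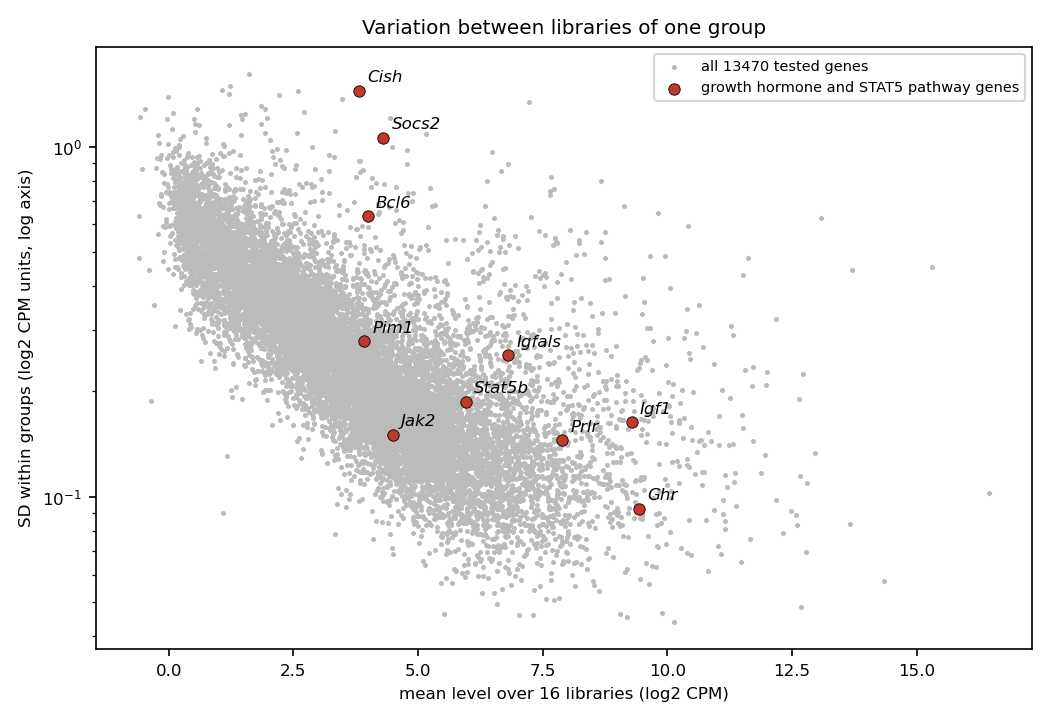
SD of log2 CPM between libraries of one group (vertical, log axis) against mean log2 CPM over 16 libraries (horizontal) for all 13470 tested genes (grey) and the 10 pathway genes (red). Cish (1.45), Socs2 (1.06) and Bcl6 (0.63) lay near the upper edge for genes of their level, and Jak2 (0.15) and Ghr (0.093) lay low among theirs.

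To ask which genes varied together, each gene's log2 CPM minus its group mean was compared over the 16 libraries for all 45 pairs, with 100000 permutations within groups. At an adjusted p under 0.05 for Pearson's r there were 2 pairs. Ghr and Prlr deviated in opposite directions, with r = -0.801 (permutation p = 0.000340, adjusted 0.0153) and rho = -0.8294 (permutation p adjusted 0.00990), and r of -0.759 in females and -0.838 in males. Their deviations were small, with pooled SDs of 0.093 and 0.15, and without Cyp2b-null female library 1 and hCYP2B6-Tg male library 4, the farthest from the median of Ghr, r was -0.741 (permutation p adjusted 0.161). Socs2 and Cish deviated together, with r = 0.702 (permutation p = 0.00111, adjusted 0.0250), r of 0.984 in females and 0.732 in males, but rho was 0.562 (permutation p = 0.0149, adjusted 0.168). Without the 2 libraries farthest in Socs2, Cyp2b-null female 5 and hCYP2B6-Tg female 1, which were low in both genes, r was 0.624 (permutation p adjusted 0.302). Neither relation passed with those libraries left out, though the coefficients kept their sign.

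The other pairs with large coefficients did not pass. Cish and Bcl6 had r = -0.705 and rho = -0.635 (permutation p for r 0.0238, adjusted 0.214), and r was -0.354 without hCYP2B6-Tg male library 4 and hCYP2B6-Tg female library 1, where Cish was low and Bcl6 high. Bcl6 and Igf1 had r = -0.699 and rho = -0.641 (permutation p for r 0.00929, adjusted 0.110), and -0.505 without the 2 farthest libraries. Igf1 and Igfals had r = 0.758 and rho = 0.709 (permutation p for r 0.00974, adjusted 0.110), and 0.653 without the 2 farthest.

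**Figure D4:**
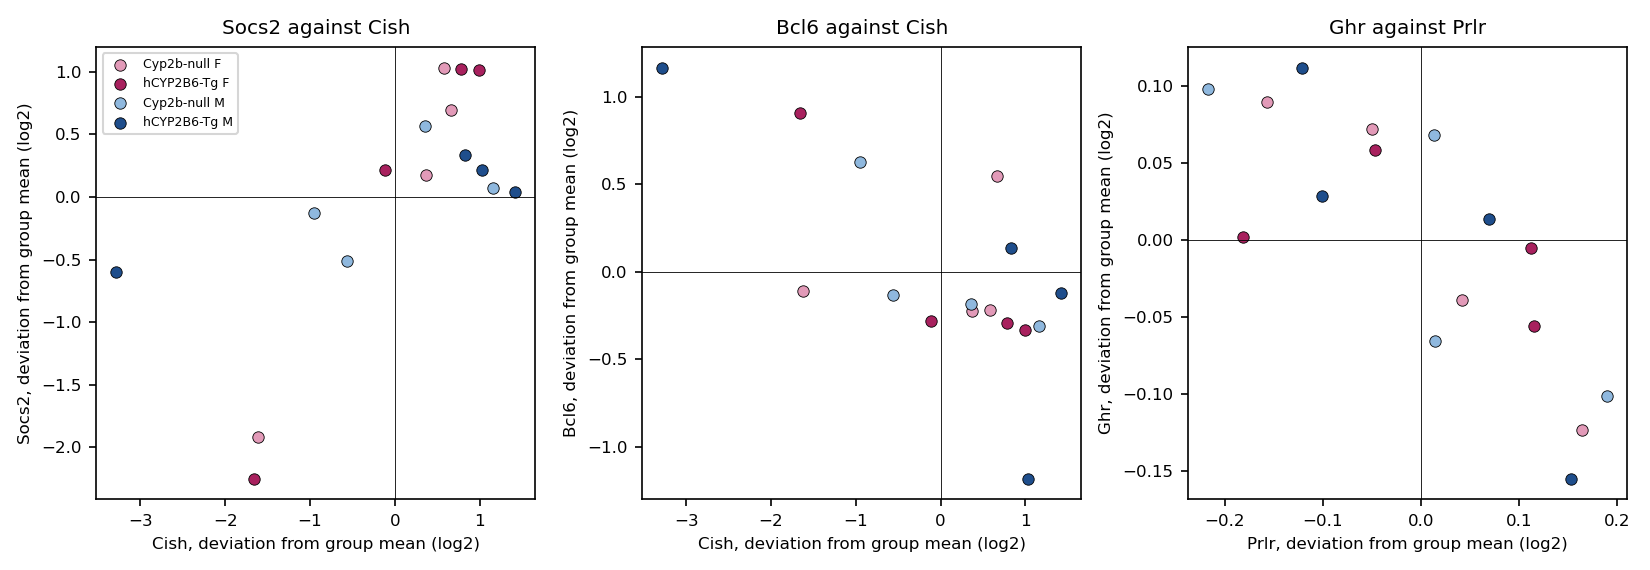
Deviations of log2 CPM from the group mean in 16 libraries, for Socs2 against Cish, Bcl6 against Cish and Ghr against Prlr; each point is 1 library, coloured by group, and the thin lines mark 0. Socs2 and Cish lay along a rising diagonal (r = 0.702) with 2 female libraries at its lower end, and Ghr and Prlr along a falling one (r = -0.801).

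Igf1 and Igfals encode secreted proteins that carry the effect of growth hormone into the circulation. Igf1 (chr10:87858265-87937047), which encodes insulin-like growth factor 1, stood at 754, 592, 562 and 582 CPM in Cyp2b-null and 557, 746, 698 and 627 CPM in hCYP2B6-Tg females. In males it stood at 593, 651, 692 and 619 CPM against 597, 669, 507 and 582 CPM. All 4 groups overlapped, and the log2 change with genotype was 0.079 ± 0.10 in females and -0.12 ± 0.10 in males, with 95% intervals of -0.15 to 0.30 and -0.34 to 0.11.

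Igfals (chr17:24877844-24882011) encodes the acid-labile subunit, which holds IGF1 and its binding protein in a long-lived complex in serum. It stood at 163, 114, 129 and 112 CPM in Cyp2b-null and 120, 168, 169 and 121 CPM in hCYP2B6-Tg females. In males the values were 112, 106, 107 and 96.3 CPM against 101, 83.5, 58.1 and 85.0 CPM. The genotypes overlapped in both sexes, and the estimate in males was -0.36 ± 0.16 (edgeR adjusted p = 0.658, unadjusted 0.0386), against 0.16 ± 0.16 in females. The difference between these effects, -0.52 ± 0.23, did not pass (edgeR adjusted p = 0.621).

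Sex was compared within each genotype, as females against males. In Cyp2b-null livers 3 of the 10 genes passed, Prlr and Stat5b higher and Pim1 lower in females, against 7.52% of all genes, 3.57% higher and 3.95% lower. In hCYP2B6-Tg livers 3 passed, Prlr and Igfals higher and Ghr lower in females, against 10.3% of all genes, 4.69% higher and 5.56% lower. An unadjusted p under 0.05 was reached by 4 of the 10 in Cyp2b-null (19.9% of all genes) and 3 in hCYP2B6-Tg livers (23.5%). The female and male libraries did not overlap for 3 genes in each genotype (Prlr, Igfals and Pim1 in Cyp2b-null, against 12.3% of all genes, and Ghr, Prlr and Igfals in hCYP2B6-Tg, against 15.6%).

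Prlr was 2.60-fold higher in Cyp2b-null females, with means of 401 ± 38.1 and 154 ± 17.6 CPM and a log2 difference of 1.38 ± 0.10 (edgeR adjusted p = 5.17e-10). In hCYP2B6-Tg livers the means were 402 ± 39.0 and 129 ± 11.999 CPM, a 3.11-fold difference of 1.64 ± 0.10 on the log2 scale (edgeR adjusted p = 2.22e-11). Every female library lay above every male library. Both calls held without any 1 library and in every other setting tried.

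Pim1 was 2.45-fold lower in females than in males of the Cyp2b-null genotype, a log2 difference of -1.29 ± 0.17 (edgeR adjusted p = 1.31e-05), which held in every omission and setting tried. In the transgenic livers the difference was 0.12 ± 0.17 (edgeR adjusted p = 0.728), with a 95% interval of -0.25 to 0.50. The difference between these sex effects is the same test as that of the genotype effects above, and passed with an adjusted p of 0.0420.

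Igfals was higher in females by 0.82 ± 0.16 on the log2 scale in hCYP2B6-Tg livers (edgeR adjusted p = 0.00281, 1.77-fold). In Cyp2b-null livers the estimate was 0.30 ± 0.16 (edgeR adjusted p = 0.320). Without the 3 libraries that stood apart the value in hCYP2B6-Tg livers was 0.69 and still passed (edgeR adjusted p = 0.000935). Stat5b was higher in Cyp2b-null females by 0.44 ± 0.12 (edgeR adjusted p = 0.0198), with overlapping groups, and the call was lost without Cyp2b-null female library 1 or 3 or Cyp2b-null male library 2 or 3 (adjusted p up to 0.0817). Without the 3 libraries that stood apart it was 0.34 and did not pass (edgeR adjusted p = 0.189). Ghr was lower in hCYP2B6-Tg females by an estimate of -0.26 ± 0.077 (edgeR adjusted p = 0.0346), and this call was lost in 6 of 16 omissions, those of transgenic female libraries 2, 4 and 5 and transgenic male libraries 2, 3 and 5 (adjusted p up to 0.0983). Without the 3 libraries that stood apart it was -0.31 and passed (edgeR adjusted p = 0.0105). In Cyp2b-null livers the Ghr value was -0.17 ± 0.077 (edgeR adjusted p = 0.222). The difference of the sex effect between the genotypes did not pass for Stat5b, Igfals or Ghr (edgeR adjusted p = 0.632, 0.621 and 0.902). The sums of Kupffer cell and fat cell markers given above also differed between the sexes, and their part in these differences was not tested.

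The other genes of the pathway were taken from lists. Of 25 tested partners and regulators of growth hormone receptor signalling (Stat5a, other JAK, STAT and SOCS genes, phosphatases, adaptors and nuclear factors), 0 passed for genotype in either sex and 0 for the difference between the sexes. Their median log2 change was -0.0091 in females and -0.069 in males. The smallest p belonged to Cux2 in females (-0.95 ± 0.35, edgeR adjusted p = 0.566), to the adaptor gene Sh2b2 in males (-0.73 ± 0.36, edgeR adjusted p = 0.705) and to the estrogen receptor gene Esr1 for the difference (0.51 ± 0.24, edgeR adjusted p = 0.632). For sex, 4 were higher and 0 lower in Cyp2b-null females, against 3.57% and 3.95% of all genes. In hCYP2B6-Tg females 6 were higher and 1 lower, against 4.69% and 5.56% of all genes. Cux2, a female-specific repressor of male-biased genes, had means of 35.9 ± 21.9 and 18.1 ± 7.31 CPM in the Cyp2b-null and transgenic females and 0.225 ± 0.340 and 0.154 ± 0.109 CPM in the males (edgeR adjusted p for sex 3.75e-07 and 4.94e-06). Esr1 was higher in females by 1.75 ± 0.17 and 1.24 ± 0.17 on the log2 scale (edgeR adjusted p = 2.96e-07 and 2.49e-05). The insulin receptor substrate gene Irs1 was higher in Cyp2b-null females by 0.83 ± 0.15 (edgeR adjusted p = 0.000681) and in transgenic females by 0.76 ± 0.15 (edgeR adjusted p = 0.00156). The SOCS family gene Socs7 was lower in transgenic females, at -1.04 ± 0.19 (edgeR adjusted p = 0.000488), with a value of -0.54 ± 0.18 in Cyp2b-null livers (edgeR adjusted p = 0.0823).

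Of 9 tested genes of the IGF system (receptors and binding proteins), 0 passed for genotype in females or in males, and 0 for the difference. Genes of proteases were not among those tested. The smallest p was that of Igfbp5 in females (1.28 ± 0.66, edgeR adjusted p = 0.698) and of Igfbp3 in males (0.60 ± 0.18, edgeR adjusted p = 0.338) and for the difference (0.82 ± 0.25, edgeR adjusted p = 0.371). Igfbp3 encodes the binding protein that joins IGF1 and the product of Igfals in serum. Its means were 15.8 ± 3.31 CPM in Cyp2b-null females, 13.4 ± 1.86 in transgenic females, 8.89 ± 2.23 in Cyp2b-null males and 13.4 ± 1.29 in transgenic males. It was the 1 gene of this list that differed by sex, higher in Cyp2b-null females by 0.82 ± 0.18 (edgeR adjusted p = 0.00405). Of all genes 7.52% passed in that comparison.

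Known sex-biased genes are distant readouts of growth hormone and STAT5B in liver. Of 21 tested male-biased genes, 20 were lower in females in Cyp2b-null and 19 in hCYP2B6-Tg livers, against 3.95% and 5.56% of all genes. Their median log2 differences were -4.56 and -3.49, against 0.0046 and 0.016 over all genes. Of 24 tested female-biased genes, 23 and 22 were higher in females, against 3.57% and 4.69% of all genes, with medians of 4.37 and 3.45. Both lists were chosen for sex bias, with earlier results of these data known, so these counts are a description and not a test. With the smallest adjusted p among the listed genes were Keg1, Nat8 and Cyp2u1 in Cyp2b-null and Mup20, Elovl3 and Cyp2u1 in transgenic livers on the male side. On the female side they included Cyp2c40 and Cyp3a41a in both genotypes. Cyp2c40, a P450 gene, had means of 370 ± 67.8 and 423 ± 67.4 CPM in Cyp2b-null and transgenic females and 13.5 ± 1.49 and 10.1 ± 1.46 CPM in the males. Reads of Mup20, Cyp2c40 and Cyp3a41a may be shared with close copies.

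With genotype, 1 of the 21 male-biased genes passed. Egfr, the receptor of epidermal growth factor, was lower in transgenic males, at -1.35 ± 0.21 (edgeR adjusted p = 0.0299), from 405 ± 32.7 to 159 ± 19.6 CPM. In females 0 of the 21 passed, 18 had a positive estimate and the median was 0.33, while in males 2 had a positive estimate and the median was -0.37. Some of the 21 were near 0 in both female groups. For example, 1 had means of 0 and 0.0291 CPM (1.56 ± 3.32) and another 0.0678 and 0.0336 CPM (-0.73 ± 3.07). The signs of such female estimates, and of differences that use them, say little. The share of positive estimates over all genes is not given here. For the effect in males minus that in females, 1 of the 21 estimates was positive, the median was -0.59, and 0 passed. The smallest p were those of Egfr (-1.80 ± 0.30) and Keg1 (-0.99 ± 0.19), with an edgeR adjusted p of 0.0539 each, and Keg1 also had the smallest p in females (0.46 ± 0.14, edgeR adjusted p = 0.461). Over all genes the corresponding medians were 0.0016, -0.0043 and -0.0085. Of the 24 female-biased genes 0 passed in either sex or for the difference, with medians of 0.032, 0.17 and 0.097. The smallest p there were those of A1bg in females (1.16 ± 0.38, edgeR adjusted p = 0.548), Cyp2a4 in males (1.04 ± 0.29, edgeR adjusted p = 0.370) and Cyp2c40 for the difference (-0.63 ± 0.21, edgeR adjusted p = 0.462).

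For each of the 10 genes the most similar of 13460 other tested genes was sought by Pearson's r of the deviations from the group means over the 16 libraries. These were Rpl37rt for Ghr (r = 0.922), Ccdc9 for Prlr (0.861), Tdrp for Jak2 (0.897), Rnf125 for Stat5b (0.925), LOC102639104 for Socs2 (0.889) and Foxa2 for Cish (0.942). For Bcl6, Igf1 and Igfals they were Gm5900 (0.981), Rcc2 (0.840) and Cd72 (0.836). Pim1 was most like Mettl7a1 (0.853), Rpl22l1 (0.846) and Rbm5 (0.842). Spearman's rho for the first gene of each ran from 0.671 for Socs2 to 0.935 for Stat5b. These coefficients are the highest of many and are given as a description.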

How the data were processed

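Liver RNA was sequenced in 16 libraries, 4 in each of 4 groups, which were read from the titles. RNA was extracted with Trizol and libraries made with a NEB Next Ultra kit, per the labels' protocols. The authors deposited whole-number read counts per gene symbol. The build GRCm38.p6 and the tools GSNAP, Subread, edgeR, Trimmomatic and FastQC are named, without versions, in the submitters' processing notes. The sources used here do not give the strand setting or the handling of multimapping reads, so genes with close copies or antisense partners are uncertain. Of 41585 rows 16032 had no count, and 2 row names were repeated. A row for the human transgene was not analysed here.

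Counts were filtered with filterByExpr (13470 genes), scaled by TMM and fitted in edgeR 4.0.16 (R 4.3.3) with glmQLFit, robust, in 4 groups. The quasi-likelihood F test was two-sided, with Benjamini-Hochberg adjustment over all tested genes. Each SE was derived from the fold change and the F statistic, and 95% intervals use 12 residual degrees of freedom. Log2 CPM for spread and correlations used a prior count of 2. The model was tested on simulated data. Alternatives were RLE or no scaling factors, other filters, DESeq2 1.42.0, limma voom 3.58.1, non-robust fits, a replicate block, fewer libraries and omission of ribosomal RNA rows. The members, lists and tests were chosen with earlier results of these data known. Named by rule were the 10 genes, up to 3 genes per list and comparison with the smallest adjusted p past the threshold, otherwise the 1 with the smallest p for genotype, and each gene's nearest in pattern (3 for Pim1). One gene that the rule selects is not reported here.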

Additional observations from a re-analysis of the deposited data

Results flagged for a closer look

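In 4 of 40 sets of 4 libraries (10 genes in 4 groups) 1 library lay farther from the others than Dixon's 95% limit allows, a limit that chance passes in about 1 of 20 sets. Bcl6 was far above its group in 3 of them, at 18.7 CPM in Cyp2b-null female library 3, 27.8 CPM in hCYP2B6-Tg female library 1 and 22.4 CPM in Cyp2b-null male library 1. Igf1 was far above its group in Cyp2b-null female library 1, at 754 CPM. The genotype effect on Pim1 differed between the sexes, by -1.42 on the log2 scale as males minus females (edgeR adjusted p = 0.0420). That call was lost in 11 of 16 omissions of 1 library (adjusted p up to 0.138) and with library totals as the only scaling (adjusted p = 0.0506).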

How the results depend on the processing

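Over at most 28 settings per comparison, 0 of the 8 estimates past the threshold changed sign, 4 of them lost the call in some setting, and 0 of the 42 others gained one. The number of pathway genes called for genotype in males was 0 with limma voom, without robust estimation and with the replicate block, and 0 to 1 leaving out 1 library. For the difference between the sexes it was 0 with library totals only and with the replicate block, and 0 to 1 leaving out 1 library. Under these the adjusted p of Pim1 in males was 0.0576 (voom), 0.0630 (not robust) and 0.0947 (block), and for the difference 0.0506 (totals) and 0.0573 (block). Ghr in transgenic livers by sex was lost with library totals (0.0856), with the block (0.0869) and with only the 8 libraries compared (0.0507). Pairs of genes past the threshold fell from 2 to 0 without the 2 farthest libraries, with fewer libraries compared.

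Of the 42 estimates that did not pass, 11 changed sign in some setting. For genotype in females, Prlr was -0.0013 with RLE scaling, -0.0034 unfiltered, -0.0015 at 1 CPM in 4 libraries, -0.0011 with DESeq2, -0.0013 without ribosomal RNA rows and -0.047 to 0.062 leaving out 1 library. There Socs2 was -0.025 with the replicate block and -0.27 to 0.46 leaving out 1 library, and Bcl6 -0.12 to 0.50. For the difference, Cish went from 0.59 to -0.11 with voom, and Bcl6 from 0.54 to -0.19 without the 3 libraries that stood apart. For sex in Cyp2b-null livers, leaving out 1 library gave -0.00091 to 0.16 for Jak2, -0.63 to 0.074 for Socs2, -0.39 to 0.059 for Bcl6 and -0.14 to 0.0095 for Igf1. Igf1 was 0.0012 with the block, and Cish -0.27 without the 3 libraries. For sex in transgenic livers Cish was 0.25 with voom and -0.75 to 0.037 leaving out 1 library. The cause of these changes was not tested.

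Over all genes, 15 were called for genotype in males, against 6 with voom, 9 not robust, 5 with the block, 47 with DESeq2, 26 in the 8 libraries alone and 28 without the 3 libraries. Leaving out 1 library gave 2 (without Cyp2b-null male 4, hCYP2B6-Tg male 4 or hCYP2B6-Tg male 5) to 24 (without Cyp2b-null female 1). For the difference 6 were called, against 0 with library totals, 16 with DESeq2, 3 with voom, 9 with the block, and 0 to 12 leaving out 1 library (12 without hCYP2B6-Tg female 1). For genotype in females 0 were called, against 12 with DESeq2, 2 unfiltered, 2 with the block and 0 to 1 leaving out 1 library. Library numbers were taken as a replicate block only as an alternative: the 18 same-numbered pairs correlated at -0.107 to 0.190, 2 of them over 0.1, and 5 of 16 libraries correlated best with one of their own number.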
